A study of Mus musculus with 2 samples.

Results

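In all, 10 genes of the S100 family that are active in skin were followed in a three-dimensional skin culture built from cells of Itih5 knockout mice and in its counterpart built from wildtype cells. The members were the probe sets that the platform annotation assigns to a single symbol on the list S100a3, S100a4, S100a6, S100a7a, S100a8, S100a9, S100a10, S100a11, S100a14 and S100a16. All 10 were found, each with 1 probe set, among 22180 genes with a probe set of their own. Both cultures, called skin models by the submitters, held keratinocytes and dermal fibroblasts that had been grown from adult mouse skin and passaged many times, and both are marked as day 7. The knockout group carried the Itih5 knockout genotype and the wildtype group did not, and the mice of neither group had received a treatment. A single culture on a single array stands for each genotype, and the labels state neither the strain nor the number of mice behind it. Differences between the arrays therefore have no replicate spread to be read against, and p-values were not computed.

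S100 proteins are small calcium sensors with a pair of EF-hand loops. They work as dimers that open on binding calcium and then grip a target protein. In skin some are made by keratinocytes as they differentiate or respond to injury, above all S100a7a, a relative of the antimicrobial human S100A7, and the calprotectin pair S100a8 and S100a9. Others, such as S100a4, long known as fibroblast-specific protein, and S100a6, or calcyclin, are known from fibroblasts and other mesenchymal cells. They are called mesenchymal members here for that reason, and which cells of the cultures expressed each member was not tested. S100a10 and S100a11 serve annexins in many cell types. Most S100 genes lie together on mouse chromosome 3, at both ends of the epidermal differentiation complex, the gene cluster that supplies the proteins of the cornified layer.

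The values are array intensities on a linear scale. As deposited, 67457 of 67586 values lacked their decimal point, which was put back before any comparison, and a member counts as restored where 1 pair of places had a probability of at least 0.95. A gene counted as expressed where the higher of its restored values reached 47.7, the median over all probe sets. Differences are log2 intensities of the knockout minus the wildtype culture. Each probe set has its own brightness, so an order or a sum of intensities over different genes describes array signal and not RNA levels.

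The promoter stretches of 5 members are shown first, because these genes give the contrast described below. S100a7a, S100a8 and S100a9 are the keratinocyte members that read lower in the knockout culture, and S100a4 and S100a6 are the mesenchymal members that did not. Each stretch runs from 150 bases before to 20 bases after a transcription start, taken from RefSeq on build GRCm38.p6 and written 5′ to 3′ on the strand of the gene. Capitals mark the letters TATAAA. The positions on chromosome 3 are chr3:90654152-90654321 on the plus strand for S100a7a, chr3:90668921-90669090 on the plus strand for S100a8, chr3:90695702-90695871 on the minus strand for S100a9, chr3:90603620-90603789 on the plus strand for S100a4 and chr3:90612744-90612913 on the plus strand for S100a6. They are as follows.
S100a7a: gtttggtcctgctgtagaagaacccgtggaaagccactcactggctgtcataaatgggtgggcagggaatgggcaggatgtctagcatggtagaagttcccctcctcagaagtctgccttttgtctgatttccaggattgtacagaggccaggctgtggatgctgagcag
S100a8: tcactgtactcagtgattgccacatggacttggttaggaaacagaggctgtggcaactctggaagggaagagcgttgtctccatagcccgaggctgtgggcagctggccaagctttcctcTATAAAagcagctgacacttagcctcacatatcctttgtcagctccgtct
S100a9: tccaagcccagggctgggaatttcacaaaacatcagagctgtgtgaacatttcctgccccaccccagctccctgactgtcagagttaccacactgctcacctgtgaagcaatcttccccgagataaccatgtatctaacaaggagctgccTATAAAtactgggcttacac
S100a4: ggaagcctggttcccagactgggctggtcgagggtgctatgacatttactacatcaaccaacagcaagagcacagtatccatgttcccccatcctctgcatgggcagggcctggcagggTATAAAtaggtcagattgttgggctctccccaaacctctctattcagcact
S100a6: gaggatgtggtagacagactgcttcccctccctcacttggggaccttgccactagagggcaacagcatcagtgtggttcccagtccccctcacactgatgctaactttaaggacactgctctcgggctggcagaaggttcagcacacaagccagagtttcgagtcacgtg

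RefSeq windows of 300 bases were at hand for 8 of the 10 members, 12 windows in all, and both strands were searched for 4 short motifs. The TATA box letters TATAAA were in 4 of the 12 windows, those of S100a8, S100a9, S100a4 and 1 window of S100a3, against 13.6% of 32851 windows of all genes. They began 30 bases before the start of S100a8 and 31 bases before that of S100a4, and at base 1 of the annotated transcript of S100a9. The same letters were therefore present in front of S100a8, which read lower, and of S100a4, which did not. The AP-1 letters TGANTCA were in the window of S100a11, at 2 positions, and in 1 window of S100a16, against 7.81% of all windows. The C/EBP letters TTNNGNAA were in 4 member windows, those of S100a8, S100a9 and 2 windows of S100a3, against 40.7% of all windows. The GC box letters GGGCGG were also in 4, those of S100a9, S100a11 and 1 window each of S100a3 and S100a16, against 35.7%. These matches describe the letters of the windows only.

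The 3 keratinocyte members that could be compared read lower in the knockout culture, while the mesenchymal members and both annexin partners read close to the wildtype culture. Of the 8 members that were restored and expressed, 4 lay at least 2-fold lower in the knockout culture and 0 were higher by that much, while 3.34% of all 12446 expressed genes were lower to this degree, 3.87% higher and 7.22% apart in either direction. By any size, 5 of the 8 were lower (S100a11 the fifth), against 45.5% of expressed genes. The median difference of the 8 members was -0.69, against 0.04 over all expressed genes. S100a3 was below the expression threshold and S100a14 could not be restored, so these counts leave out both. The restoration pooled genes in widened bins of difference, a choice made after the members' values had been seen. Under the narrow bins tried first, 6 members were restored and expressed, 3 of them at least 2-fold lower.

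**Figure D1:**
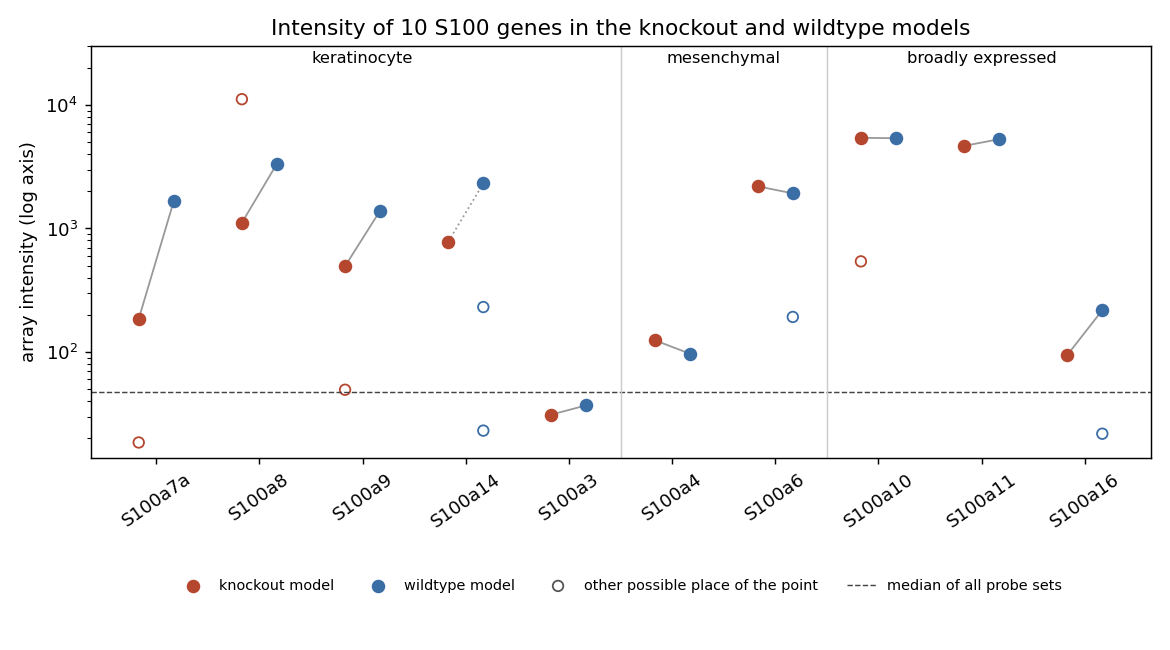
Array intensity of each S100 member on a log axis, with the knockout culture (red) left of the wildtype culture (blue), 1 array each. Filled points are the likeliest values, joined by a line that is dotted for the undecided S100a14, open points are other possible places of the decimal point, and the dashed line is the median of all probe sets, 47.7. S100a7a, S100a8 and S100a9 lie lower in the knockout culture, and S100a10 and S100a11 lie nearly level.

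S100a7a (probe set 17399817), whose human relative S100A7 is an antimicrobial and chemotactic protein of inflamed epidermis, read 185 in the knockout culture and 1668 in the wildtype culture. This is 9.0-fold lower, a log2 difference of -3.17. Only 41 of the 12446 expressed genes had a lower difference, 0.329% of them. S100a7a had 2 possible places of its point in the knockout culture, and the other, with a probability of 0.00226, would put it at 18.5, which is lower still.

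S100a8 and S100a9 form calprotectin, a heterodimer that binds zinc and manganese and is released by stressed keratinocytes and by neutrophils. S100a8 (probe set 17399823) read 1112 in the knockout culture and 3346 in the wildtype culture, 3.01-fold lower. S100a9 (probe set 17407363) read 495 in the knockout culture and 1393 in the wildtype culture, 2.81-fold lower. The subunits thus stood at log2 differences of -1.59 and -1.49, a gap far smaller than either difference. Of the expressed genes, 1.45% lay below S100a8 and 1.67% below S100a9.

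The places of the point limit the calprotectin pair in different ways. The other possible value of S100a8 in the knockout culture was 11119, with a probability of 0.0301, and would make it 3.32-fold higher. The other possible value of S100a9 in the knockout culture was 49.5, with a probability of 0.0312, and would make it 28.1-fold lower. S100a9 and S100a7a were therefore at least 2-fold lower at every possible place of their points, whereas the direction of S100a8 rests on the likelier place. Under the narrow bins the probability of the likeliest place of S100a9 was 0.88 and it would not count as restored.

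S100a14 (probe set 17399776), an epithelial S100 protein, was the undecided member. Its value in the knockout culture was 782, the 1 place possible. In the wildtype culture 2312 had a probability of 0.596, 231 a probability of 0.404 and 23.1 a probability of 0.000254. The first would make S100a14 2.96-fold lower and the second 3.38-fold higher in the knockout culture, so no direction is given. S100a3 (probe set 17399797), known from the cuticle of the hair shaft, read 31.2 in the knockout culture and 37.1 in the wildtype culture. Both values had 1 possible place and were below the threshold. Of 4 hair markers with a probe set, 2 were below the threshold in both cultures. The others were Lef1, with 80.6 in the knockout culture against 82.7 in the wildtype culture, and the hair keratin gene Krt35. Krt35 was near the threshold, with 48.7 in the knockout culture against 44.0 in the wildtype culture.

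Neither mesenchymal member differed by 2-fold. S100a4 (probe set 17399802), which binds non-muscle myosin and is known for its part in cell motility, read 125 in the knockout culture and 97.1 in the wildtype culture, 1.28-fold higher. Both values had 1 possible place. S100a6 (probe set 17399812), a partner of the calcyclin-binding protein and of annexins, read 2193 in the knockout culture and 1923 in the wildtype culture, 1.14-fold higher. Its other possible value in the wildtype culture, 192 with a probability of 0.0101, would make it 11.4-fold higher, so both mesenchymal members were higher in the knockout culture at every possible place. Under the narrow bins the likeliest place of S100a6 had a probability of 0.906, which would leave it out. Differences as high as that of S100a4 were common, since 77.9% of expressed genes lay below it.

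The broadly expressed members split. S100a10 (probe set 17400000), which pairs with annexin A2 at the inner face of the cell membrane, read 5415 in the knockout culture and 5376 in the wildtype culture; the log2 difference of 0.01 had a sign that turned when the arrays were scaled in another way (-0.02 to 0.08 over 4 scalings, the one used here included). Its other possible value in the knockout culture, 542 with a probability of 0.018, would make it 9.93-fold lower. The restoration favours small differences and can read a gene that is truly about 10-fold apart as level, which limits the values of S100a10 and S100a6 more than those of S100a11 and S100a4, each with 1 possible place. S100a11 (probe set 17399995), the partner of annexin A1 and, in human skin, a component of the cornified envelope, read 4659.7 in the knockout culture and 5275 in the wildtype culture, 1.13-fold lower with 1 possible place. A pseudogene copy, S100a11-ps, has a probe set of its own with 205 in the knockout culture against 236 in the wildtype culture, and sharing of signal between the copies cannot be told from these files. S100a16 (probe set 17399783), an S100 protein found in many tissues, read 94.4 in the knockout culture and 218 in the wildtype culture, 2.31-fold lower. Its other possible value in the wildtype culture, 21.8 with a probability of 0.0235, would make it 4.33-fold higher.

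Grouped by role, the 3 restored and expressed keratinocyte members each lay at least 2-fold lower, with a median log2 difference of -1.59. The 2 mesenchymal members had a median of 0.28 and the 3 broadly expressed ones -0.18. The mesenchymal median thus lay 1.86 above the keratinocyte median on the log2 scale. With S100a14 taken in and every member moved to its lowest or highest possible place, this gap ranged from 0.16 to 5.14 and was 1.85 at the likeliest places. The gap rests on 5 genes.

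**Figure D2:**
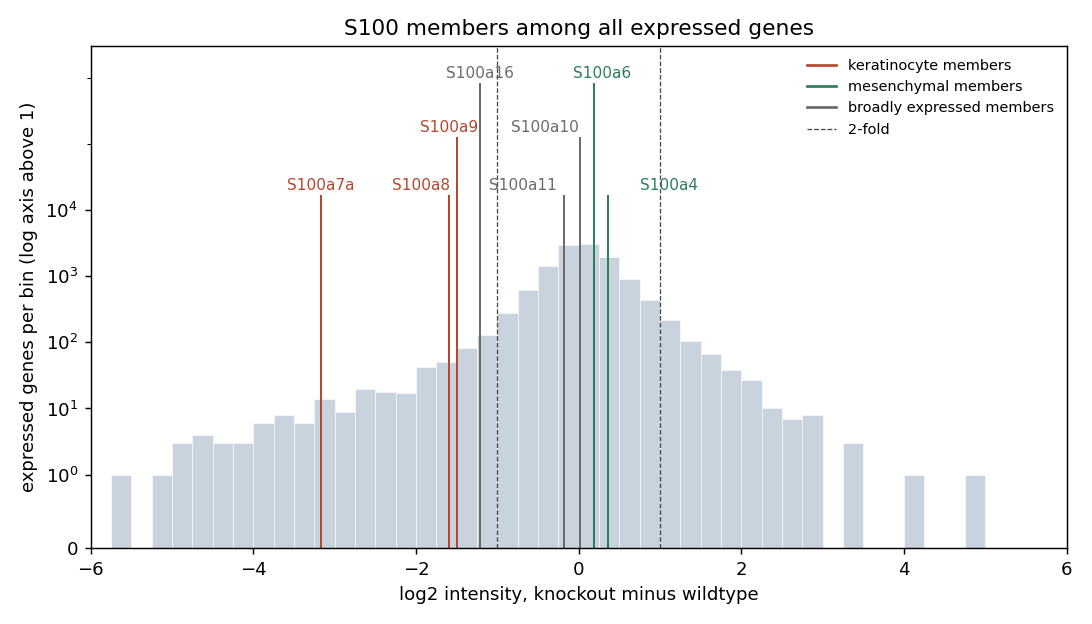
Number of expressed genes by log2 difference (knockout minus wildtype, bins of 0.25; the vertical axis is logarithmic above 1), with a vertical line for each restored and expressed S100 member and dashed lines at 2-fold. S100a7a, S100a8, S100a9 and S100a16 lie in the lower tail, and the other 4 members lie in the central mass of genes.

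Markers of both labelled cell types differed between the cultures, keratinocyte markers being lower and fibroblast markers higher in the knockout culture. Of 6 expressed keratinocyte markers, 3 lay at least 2-fold lower in the knockout culture and 0 higher, with summed intensities over the restored markers of 8277 in the knockout culture against 19625 in the wildtype culture. Krt14, a keratin of basal keratinocytes, read 4076 in the knockout culture against 9538 in the wildtype culture, and Krt10, a keratin of the suprabasal layers, 333 against 850. The desmosomal cadherin gene Dsg3 read 2149.7 against 6581. Krt5 had no probe set of its own and Trp63 was undecided. Krt1 was near the threshold, with 39.8 in the knockout culture against 54.7 in the wildtype culture. Cdh1 read 725 against 1428 and Epcam 954 against 1173, both under 2-fold, and other places of their points could make both higher. Of 7 expressed fibroblast markers, 2 lay at least 2-fold higher and 0 lower, with summed intensities of 13566 in the knockout culture against 7323 in the wildtype culture. Among them Col1a1, for a chain of type I collagen, read 2145 against 876 and the factor gene Twist2 495 against 159.7, both past 2-fold. Under 2-fold were Col1a2 with 809.9 against 437, Col3a1 with 389 against 217 and Vim with 6479 against 3666. Another listed fibroblast marker, Lum, was below the threshold in both cultures, with 24.6 in the knockout culture against 30.9 in the wildtype culture. Both cultures thus carried markers of both labelled cell types. In RNA of whole cultures, fewer cells of a type and less RNA per cell cannot be told apart, and the part of such shifts in the S100 differences was not tested.

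S100a8 and S100a9 are also abundant in neutrophils, and S100a4 in macrophages. Of 8 neutrophil markers, 7 were below the threshold in both cultures, among them Ly6g, Mpo, Elane and Camp. The exception was the chemokine receptor gene Cxcr2, with 112 in the knockout culture against 192 in the wildtype culture. The summed neutrophil intensities were 342 in the knockout culture against 416 in the wildtype culture, and the part of these cells in the S100 differences was not tested. Of 6 restored macrophage markers, 4 were below the threshold, including the defining genes Adgre1 and Csf1r, while Cd68 read 861 against 1161 and Lyz2 151 against 203. The summed macrophage intensities were 1153 in the knockout culture against 1516 in the wildtype culture. Cxcr2, Cd68, Lyz2 and the Langerhans cell marker H2-Ab1 are named because they were the exceptions, after their values were seen. Of 4 Langerhans cell markers with a probe set, 3 were below the threshold, Cd207 among them, and H2-Ab1 read 53.5 against 44.4. The 4 restored lymphocyte markers were below the threshold as well. Of the melanocyte, endothelial and adipocyte markers, 1 each was at least 2-fold higher in the knockout culture, namely Mlana (705 against 109), Kdr (87.4 against 36.1, below the threshold in the wildtype culture) and Fabp4 (4974 against 816), while Dct, Tyr, Tyrp1, Pecam1, Cdh5, Tek and Adipoq were below it in both. The other expressed markers of these lists were under 2-fold, with 51.3 against 66.4 for Sox10, 69.2 against 56.5 for Pmel and 74.8 against 62.6 for Plin1, and Lpl was undecided.

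Itih5 itself was below the threshold in both cultures, with 30.4 in the knockout culture against 29.8 in the wildtype culture. Its probe set does not check the genotype labels, because without signal above the threshold in the wildtype culture a loss could not be seen. The labels also do not say which part of the gene was removed. Over all probe sets, with undecided ones at their likeliest places, the arrays were alike in scale. The medians were 47.4 in the knockout culture against 47.9 in the wildtype culture.

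The rest of the S100 family was mostly below the threshold or level, with 1 exception that was higher. S100a13, which takes part in the release of growth factors that lack a signal peptide, read 313 in the knockout culture and 130 in the wildtype culture, 2.41-fold higher with 1 possible place. S100a1, best known from heart and skeletal muscle, read 346 in the knockout culture and 365 in the wildtype culture. The other possible place of its point in the knockout culture would make S100a1 10.6-fold lower. The RefSeq spans of these neighbours on chromosome 3 overlap by a short stretch. S100a2, S100a5, S100a7l2, S100b, S100g and S100z were below the threshold in both cultures. The knockout culture had intensities of 25.8 to 46.8 for them, and the wildtype culture 24.2 to 46.5. S100a2 is not on the list of other S100 genes and was named after its value was seen.

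The order of the genes along chromosome 3 separated the members only in part. The first group of neighbours runs from S100a1 through S100a13, S100a14, S100a16, S100a3, S100a2, S100a4, S100a5, S100a6, S100a7a and S100a8 to S100a9. Of its 12 genes, 8 were restored and expressed, 4 of them at least 2-fold lower and 1 higher in the knockout culture, with a median of -0.64. S100a7a, S100a8 and S100a9 are adjacent and all were lower, while S100a6, the neighbour of S100a7a, and S100a4 were not. Between S100a9 and S100a11 the RefSeq table has 56 protein-coding genes, the epidermal differentiation complex proper. Of its 29 restored and expressed genes, 21 were at least 2-fold lower and 0 higher, with a median of -1.79. Another 7 genes of this stretch were undecided, and at their likeliest places 5 of them (Pglyrp3, Prr9, Lce1f, Lce1k and Lce1m) would be at least 2-fold higher, 1 (Sprr1b) lower and 1 (Lce1l) under 2-fold. At the far end S100a11 and S100a10 were level.

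**Figure D3:**
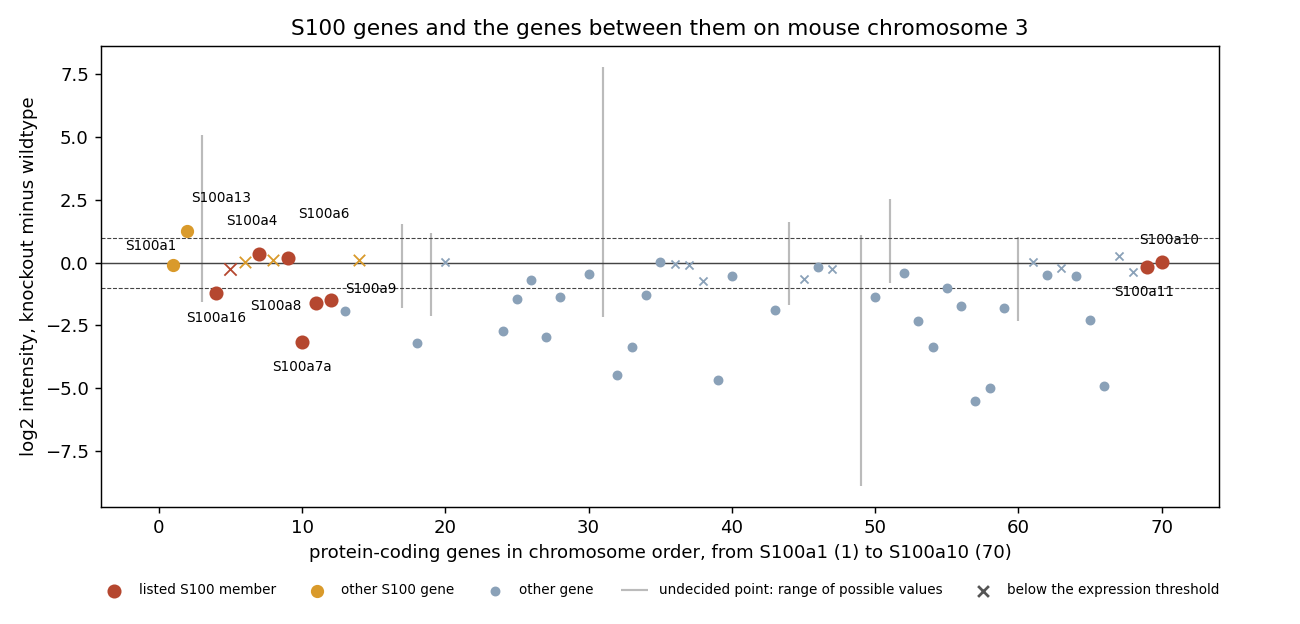
Log2 difference (knockout minus wildtype) of the 70 protein-coding genes from S100a1 to S100a10 in their order on mouse chromosome 3, with listed S100 members in red, other S100 genes in orange and other genes in blue. Crosses are genes below the expression threshold, grey lines span the possible values of undecided genes, and genes without a probe set of their own have no symbol. The lowest S100 members, S100a7a, S100a8 and S100a9, adjoin the complex. In the complex, 21 of 29 restored and expressed genes were at least 2-fold lower and 7 genes were undecided. Some of the 29 reached the threshold in the wildtype culture only and could only read lower.

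Fused S100 genes carry an S100 domain at the head of a long repetitive protein that is deposited in the cornified layer or hair follicle. Of the 7 listed, 4 were expressed, 2 of them at least 2-fold lower in the knockout culture and 0 higher, with a median of -1.41. Among all expressed genes 3.34% were lower and 3.87% higher to this degree. Rptn, the repetin gene, read 58.6 in the knockout culture against 1743 in the wildtype culture, 29.7-fold lower. Hrnr, the hornerin gene, read 31.2 against 153 and was below the threshold in the knockout culture. Flg, the filaggrin gene, read 38.9 against 55.7 and Crnn, the cornulin gene, 36.1 against 51.3, both also below the threshold in the knockout culture. Hrnr, Flg and Crnn thus count as expressed through their wildtype value only and could only read lower. Rptn alone was above the threshold in both cultures, which limits the count and the median. Flg2, Tchh and Tchhl1 were below the threshold in both cultures.

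Receptors for extracellular S100 proteins did not read lower as a group. Of 8 restored and expressed members of this list, 2 were at least 2-fold higher in the knockout culture and 0 lower, with a median of 0.31. The shares over all expressed genes were 3.87% higher and 3.34% lower. Cd14, the co-receptor of Tlr4 through which S100a8 signals, read 551 in the knockout culture and 240 in the wildtype culture, 2.29-fold higher. Cd36, a scavenger receptor, read 83.9 against 33.5 and was below the threshold in the wildtype culture, and under the narrow bins its likeliest place had a probability of 0.707, which would leave it out. The 3 receptor genes with the highest mean intensity read nearly the same in both cultures. Bsg, which encodes basigin, known in human cells as a receptor for S100A9, read 4115 against 3738, Nptn, which encodes neuroplastin, known in human cells as a receptor for S100A8, 3170.5 against 2842, and Ly96, the other Tlr4 co-receptor, 1885 against 2006. Alcam was undecided.

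At the likeliest places of their points, intracellular partners were level on the whole. Of 14 restored members of the list, all expressed, 1 was at least 2-fold higher in the knockout culture and 0 lower, with a median of -0.04. By comparison, 7.22% of all expressed genes were at least 2-fold apart in either direction. Myh9, the heavy chain of the non-muscle myosin that S100a4 binds, read 1494 in the knockout culture and 734 in the wildtype culture, 2.03-fold higher. Its other possible place would make it 4.91-fold lower, and it came to 1.99-fold higher when the arrays were centred on their 75th percentile or quantile normalized. Anxa1, the annexin partner of S100a11, read 4319 against 5250, and Anxa2, that of S100a10, 3029 against 3926, both under 2-fold. Fabp5, the epidermal fatty acid binding protein that human S100A7 binds, read 3378 against 5408, 1.60-fold lower. Other possible places of their points would make Anxa1 12.2-fold and Fabp5 160-fold lower, while Anxa2 had 1 possible place. Further partners also had more than 1 possible place.

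**Figure D4:**
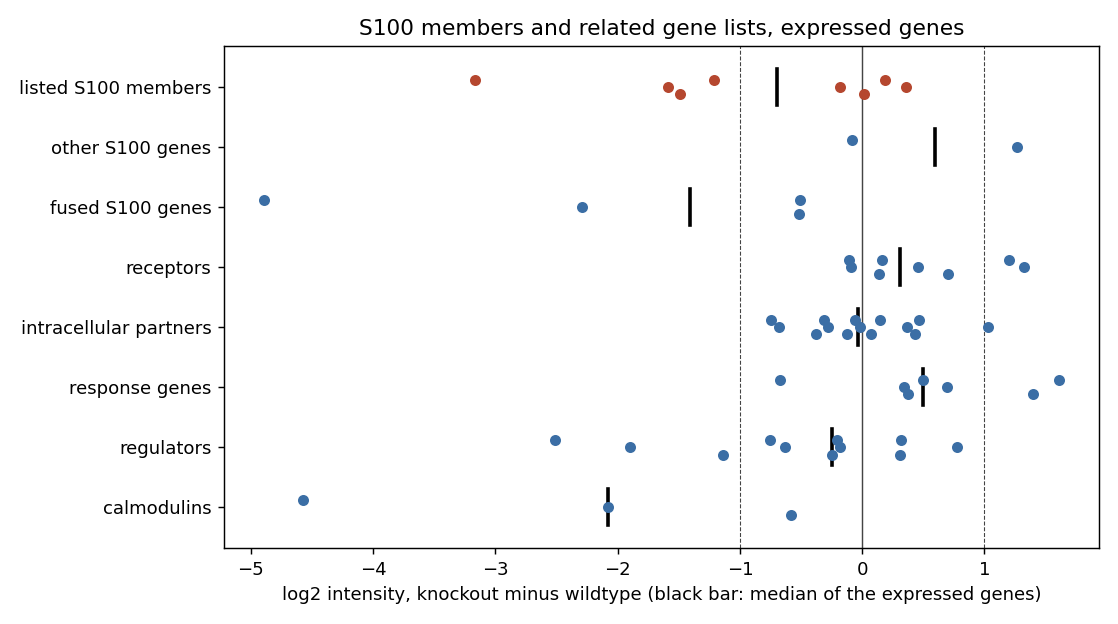
Log2 difference (knockout minus wildtype) of each restored and expressed gene of the S100 members and of 7 related lists, with black bars at the medians and dashed lines at 2-fold. The 8 S100 members spread from -3.17 to 0.36, the 14 intracellular partners lie around 0, and the calmodulin and fused S100 lists have the lowest medians. Of the expressed fused S100 genes, only Rptn was above the threshold in both cultures.

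Calmodulins are EF-hand calcium sensors of another family, some of them epidermal. Of the 6 calmodulin genes listed, 3 had a probe set of their own and all 3 were expressed. In the knockout culture 2 of them were at least 2-fold lower and 0 higher, with a median of -2.08. The shares over all expressed genes were 3.34% lower and 3.87% higher. Calm4, the skin calmodulin-related gene also called Scarf, read 61.5 in the knockout culture and 1467 in the wildtype culture, 23.9-fold lower. Its likeliest place had a probability of 0.821 under the narrow bins, which would leave it out. Calml3, the calmodulin-like gene of epithelia, read 236 against 997, 4.23-fold lower. Calm5 read 34.5 against 51.6 and was below the threshold in the knockout culture.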

How the data were processed

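RNA of 2 skin models was labelled with the WT Expression and WT Terminal Labeling kits, per the labels' protocols, and hybridised to 1 array each. The deposited values are linear intensities per probe set. What scanner software, probe summary and normalization the authors applied was not given in the sources used here. Of 67457 values without a decimal point, each was given every place that made it the shortest form of a single-precision number, a power of 2 with a single-precision exponent, and between 18 and 20000. A single place was left on both arrays for 20952 of 33793 probe sets. Otherwise pairs of places were weighted by the joint distribution of level and size of difference, learnt in 25 rounds of expectation maximisation, and by the step between exponents. A pair was accepted from a probability of 0.95, which restored 31843 probe sets (94.2%). By these probabilities 53.3 of them would be misplaced. On simulated data, misplaced values were about as frequent as the probabilities state. Most simulated pairs were drawn from the accepted pairs with little noise added, so this match was partly built in and is no independent check. Part of the genes set about 10-fold or further apart were read as 10-fold nearer to level with a probability above 0.95. A first version with narrow bins of difference was replaced by smoothed, widened bins after the members' values had been seen, and is kept as an alternative.

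Exactly 1 symbol was given for 23521 probe sets, and 0 columns of other samples were present. Where a gene had several, the restored one with the highest mean log2 value was used. Named are all members, all other and fused S100 genes, of the partner and pathway lists those at least 2-fold apart and the 3 of highest mean intensity, of the markers those at least 2-fold apart or used to check a label. Some further listed genes are named to give the limits of a count. The rule also named the 3 genes nearest to the lowest and highest member, which are not given because that distance sets intensities of different probe sets against each other. The members and lists were chosen with earlier results of these data known. No normalization was added and no test was run. The number of arrays limits the precision. Alternatives changed the scaling, a pseudocount of 16, the filter, the fold and the restoration. Python 3.11.15, numpy 2.4.6 and pandas 2.3.3 were used. Sequences are from RefSeq.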

Additional observations from a re-analysis of the deposited data

How the results depend on the processing

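No paired analysis was possible because a single array stands for each genotype, which also leaves nothing to drop in turn. The members at least 2-fold lower numbered 4 in the main analysis, 2 at a 3-fold threshold, 1 at a minimum probability of 0.99 and 0 with 1 possible place only, the last 2 because fewer members were left (3 and 2 expressed). The keratinocyte median was -3.17 at a minimum probability of 0.99 and -2.38 with narrow bins, and the gap between the mesenchymal and keratinocyte medians was then 3.53 and 2.74, since members were left out. Narrow bins were the first version, listed as an alternative after seeing the data, and left out S100a6 and S100a9. Genes at least 2-fold apart numbered 416 lower and 482 higher, against 1039 and 1451 at 1.5-fold, 184 and 132 at 3-fold, by construction of the threshold, and 304 higher with 1 possible place only. Partner and pathway genes numbered 6 higher and 7 lower, against 1 higher at 3-fold, 3 higher with 1 possible place only and 12 lower at 1.5-fold. Of 194 values under alternatives, 179 stayed within 1.5-fold of the main one, and the other 15 are those given above. Part of the 179 could not move, since each member has 1 probe set and a restored value stays the same wherever it is kept. Values that dropped out under an alternative are not among the 194. With 1 possible place only, no expressed keratinocyte member was left, so their median and the gap have no value there. S100a7a ranged from -3.20 to -3.06, S100a8 from -1.62 to -1.58, S100a9 from -1.53 to -1.46 and S100a4 from 0.32 to 0.38. Of the listed genes at least 2-fold apart, narrow bins left out Calm4 and Cd36, and a minimum probability of 0.99 left out Myh9, Cxcl2 and Grhl3. With 1 possible place only, Calm4, Cd36, Cxcl2, Dsg3, Grhl3, Krt10 and Myh9 were left out. Where both values had to reach the median of all probe sets, Hrnr, Cd36 and Kdr were left out. A pseudocount of 16 brought Kdr to 1.98-fold.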

Other observations

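Genes known to be induced by extracellular S100a8 and S100a9 or to accompany them in inflamed skin formed a separate list. Of its 7 restored and expressed genes, 2 were at least 2-fold higher in the knockout culture and 0 lower, with a median of 0.50. Among all expressed genes 3.87% were higher and 3.34% lower to this degree. The neutrophil chemokine gene Cxcl2 read 270 in the knockout culture and 103 in the wildtype culture, 2.63-fold higher. Mmp9, which encodes a gelatinase, read 197 against 64.6, 3.05-fold higher. Il1a (2536 against 1793), Cxcl1 (964 against 595), Cxcl5 (363 against 280) and the siderophore-binding gene Lcn2 (9017 against 7115) were higher by less than 2-fold. Tnf went the other way, with 136 in the knockout culture against 218 in the wildtype culture, 1.60-fold lower. Its other possible place would make it 6.26-fold higher. Il1b, Il6 and Cxcl3 were below the expression threshold in both cultures, and Ccl2 and Mmp3 were undecided.

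A list of factors and receptors known to act on S100 genes or on the epidermal programme had 11 restored and expressed genes. Of these, 3 lay at least 2-fold lower in the knockout culture and 0 higher, with a median of -0.24. The shares over all expressed genes were 3.34% lower and 3.87% higher. A further 5 genes of this list were undecided, namely Jun, Junb, Trp63, Rela and Il22ra1. Grhl3, a grainyhead factor of the epidermal barrier, read 207 in the knockout culture and 1178 in the wildtype culture, 5.70-fold lower. Klf4 read 284 against 1062, 3.74-fold lower, and Cebpa, which encodes a C/EBP factor of differentiating keratinocytes, 120 against 264, 2.20-fold lower. Those of highest mean intensity in this list, Hif1a (2850.0 against 3291), Stat3 (2273 against 1828) and Fosl2 (699 against 1082), were under 2-fold.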
